A study of Mus musculus with 64 samples.

Results

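The genes described here encode the constitutive proteasome of mouse bone marrow-derived macrophages (BMMs). They were chosen by symbol, as the protein-coding genes named Psma, Psmb, Psmc, Psmd or Psme followed by a number, without the immunoproteasome genes Psmb8, Psmb9 and Psmb10, and with a mean of at least 1 CPM (counts scaled to a common library total) over all 64 libraries. No value of any comparison entered this rule, although the set was chosen with earlier results of these data known. Of 55487 genes in the files, 43 carry such a symbol, 3 of these are the immunoproteasome genes, and 2 lay under the level, Psma8 at a mean of 0.635 CPM and Psmb11 at 0.0023 CPM. The remaining 38 genes all passed the filter on low counts, which left 14537 genes for testing. Psme1 and Psme2, which encode the inducible activator PA28, are described apart, so that counts of members below refer to the other 36 genes.

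The libraries came from BMMs of Ahr+/+ mice (C57BL/6JRj) and of Ahr-/- mice, which lack the ligand-activated transcription factor AhR and were back-crossed to the same strain, all 8 to 12 weeks old and with 4 mice per genotype. Cells were grown out for 6 days in conditioned medium, exposed for 6 h to the AhR ligands benzo(a)pyrene (BaP, 1 µM) or indole-3-carbinol (I3C, 10 µM) or to the vehicle DMSO (0.01%), and then activated with heat-killed Salmonella Enteritidis (hk S.E.), with harvest 3 h or 20 h later. At each time the 4 groups of a genotype were DMSO without activation, DMSO with hk S.E., BaP with hk S.E. and I3C with hk S.E., which gives 16 groups of 4 libraries. No group received a ligand without hk S.E., and the Ahr deletion was present in every cell of the mice rather than in macrophages alone.

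The proteasome is the protease that degrades proteins marked with ubiquitin. Its 20S core is a barrel with outer rings of alpha subunits and inner rings of beta subunits, of which Psmb5, Psmb6 and Psmb7 encode those with proteolytic activity. A 19S cap binds the barrel and consists of a base, with the ATPases Psmc1 to Psmc6 that unfold the substrate, and a lid, which removes ubiquitin. PA28 binds the same end of the barrel without ATP. In macrophages activated by bacteria, the inducible catalytic subunits Psmb8, Psmb9 and Psmb10 can take the place of Psmb5, Psmb6 and Psmb7, and the peptides that the proteasome releases are loaded onto MHC class I. Transcription of the constitutive subunits is known to be raised together by the factor NRF1, encoded by Nfe2l1, through antioxidant response elements (AREs).

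Libraries held 12152496 to 50644601 counts on genes, except for the library labelled Ahr+/+ unactivated 20 h replicate 4 with 233047331, and the median was 24499165. Counts per gene do not show the deleted part of Ahr, whose log2 level was higher in Ahr-/- than in Ahr+/+ BMMs by 1.04 in unactivated cells at 3 h, so Ahr itself does not check the labels. Ahrr, a target of AhR, stood at 18.7 CPM in Ahr+/+ and 0.911 CPM in Ahr-/- BMMs with BaP and hk S.E. at 20 h. All 8 macrophage markers exceeded a mean of 1 CPM. The neutrophil list (S100a8, S100a9, Elane, Mpo, Ly6g) summed to 15.4 to 36.7 CPM in unactivated and 64.3 to 144 CPM in activated Ahr+/+ BMMs at 3 h, carried by S100a8 and S100a9, with means of 19.3 and 26.8 CPM over all libraries, and Elane, Mpo and Ly6g had means under 0.1 CPM. Summed levels reached at most 0.191 CPM for T cell, 0.801 for B cell, 2.43 for dendritic cell and 10.4 for fibroblast markers and were 0 for erythroid markers, and the part of other cells in the results below was not tested. Since RNA of whole cultures was sequenced, fewer cells of a type and less RNA per cell cannot be told apart.

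The promoters of 4 genes are shown because these genes carry the main patterns, the catalytic subunits Psmb5 and Psmb6, the assembly chaperone Psmd10 and the activator subunit Psme2. Each is the stretch before the RefSeq start of the gene on GRCm38.p6, read 5′ to 3′ on the strand of the gene and cut where an annotated exon begins, and capitals mark matches to the motifs searched: the ARE core (TGACNNNGC or TGAGNNNGC), the CCAAT box (CCAAT), the GC box (GGGCGG), the ISRE core (GAAANNGAA), the core of the gamma-activated site (TTCNNNGAA) and an NF-kB pattern (GGANTTTCC), each on both strands. The ARE core of Psmb5 (TGACGTCGC) lies from -47 to -39 and that of Psmb6 (TGACGGAGC) from -9 to -1 relative to the start.
Psmb5, chr14:54618023-54618245, minus strand: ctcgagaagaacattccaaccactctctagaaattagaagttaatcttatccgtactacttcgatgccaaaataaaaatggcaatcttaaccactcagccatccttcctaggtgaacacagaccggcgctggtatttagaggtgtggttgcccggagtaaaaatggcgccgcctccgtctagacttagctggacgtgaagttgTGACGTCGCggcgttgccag
Psmb6, chr11:70525107-70525356, plus strand: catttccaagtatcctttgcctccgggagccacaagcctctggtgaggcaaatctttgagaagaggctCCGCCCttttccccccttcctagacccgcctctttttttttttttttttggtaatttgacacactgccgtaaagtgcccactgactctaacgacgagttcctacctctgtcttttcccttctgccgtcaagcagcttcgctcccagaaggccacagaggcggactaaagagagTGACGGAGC
Psmd10, chrX:140956729-140956961, minus strand: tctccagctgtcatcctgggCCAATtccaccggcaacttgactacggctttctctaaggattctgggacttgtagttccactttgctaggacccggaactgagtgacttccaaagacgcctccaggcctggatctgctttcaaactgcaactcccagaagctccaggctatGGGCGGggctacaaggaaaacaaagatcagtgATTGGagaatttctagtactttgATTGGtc
Psme2, chr14:55591114-55591351, minus strand: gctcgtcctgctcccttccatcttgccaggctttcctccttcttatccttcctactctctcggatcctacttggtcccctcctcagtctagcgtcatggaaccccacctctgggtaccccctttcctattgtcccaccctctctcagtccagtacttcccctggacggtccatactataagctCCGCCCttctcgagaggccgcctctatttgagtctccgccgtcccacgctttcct

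RefSeq windows from 250 bases before to 50 after the start were at hand for 32 of the 38 genes. An ARE core was found in 14 of these 32 windows (43.8%) and in 27.8% of 32851 windows of all genes. The GC box was found in 65.6% against 35.7%, the ISRE core in 15.6% against 8.56%, the CCAAT box in 37.5% against 37.4%, the gamma-activated site core in 3.12% against 8.3% and the NF-kB pattern in 0 against 1.25%. A match describes the letters of a window and is not a measured binding site. The 14 genes with an ARE core and the 16 without, PA28 left out, had like median log2 fold changes with hk S.E. at 20 h in Ahr+/+ BMMs, of 0.85 and 0.84. At 3 h these medians were 0.38 and 0.54.

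hk S.E. raised most of the 36 genes in both genotypes and at both times. Their summed level in Ahr+/+ BMMs was 3658 ± 177 CPM (SD, n = 4) without and 5662 ± 52.5 CPM with hk S.E. at 3 h, and 3205 ± 191 against 5854 ± 487 CPM at 20 h. The corresponding sums in Ahr-/- BMMs were 3437 ± 209 and 5353 ± 99.9 CPM at 3 h and 3128 ± 217 and 5838 ± 416 CPM at 20 h. In all 4 comparisons the sums of the activated libraries lay above those of all unactivated libraries. Sums in the groups with a ligand ranged from 5481 to 6046 CPM.

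**Figure D1:**
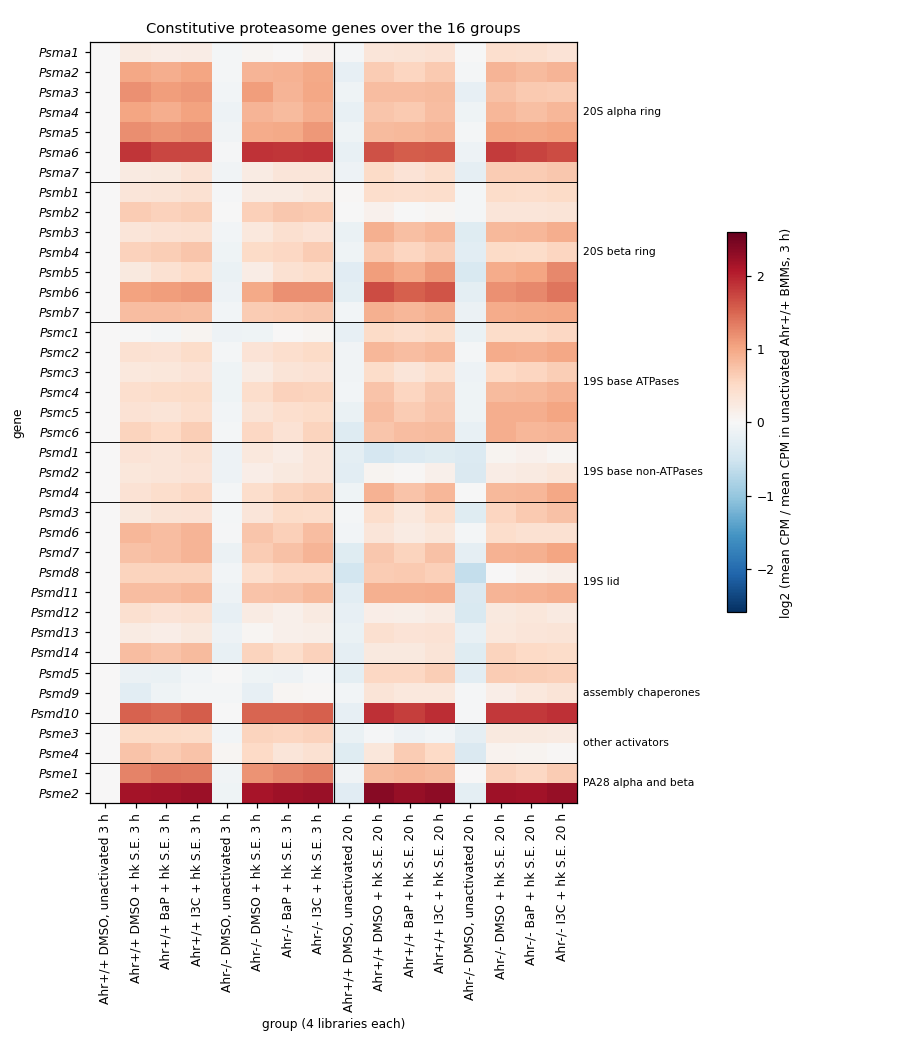
Heat map of the mean level of each of the 38 genes (rows, ordered by sub-complex) in the 16 groups (columns, 4 libraries each), as the log2 ratio of the mean CPM to that in unactivated Ahr+/+ BMMs at 3 h. The 4 unactivated columns stand apart from the 12 activated ones, in which Psme2, Psma6, Psmd10 and Psmb6 are the strongest rows.

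Compared per kilobase of exon, the members lay at unequal levels in every group. Psmd9, an assembly chaperone of the base, was lowest in all 16 groups at 2.65 to 4.02 CPM per kb. Psma6, a subunit of the alpha ring, was highest in 15 of them, with 361 CPM per kb in Ahr+/+ BMMs at 3 h of hk S.E., and Psmb5 was highest at 104 CPM per kb in unactivated Ahr+/+ BMMs at 3 h. The median level of the 36 genes in Ahr+/+ BMMs was 30.7 CPM per kb unactivated and 46.2 with hk S.E. at 3 h, and 27 and 50.4 CPM per kb at 20 h. The exon lengths used were 1234 bases for Psma6, 1872 for Psmb6 and 7248 for Psmd9. Their longest transcripts have 1042, 966 and 2634 bases, so the order of the members depends on the length chosen.

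In Ahr+/+ BMMs, 28 of the 36 genes rose after 3 h of hk S.E. and 32 after 20 h, as tested with the quasi-likelihood model of edgeR at an adjusted p below 0.01 (Benjamini-Hochberg over all genes). These counts were 30 and 34 in Ahr-/- BMMs. None of the 36 was called lower, although at 3 h Psmd9 and Psmd5 had negative log2 fold changes in both genotypes. Among all genes tested, 24.2% were called higher and 32.3% lower in Ahr+/+ BMMs at 3 h, 29.9% and 28.7% at 20 h, and in Ahr-/- BMMs 25.5% and 31.8% at 3 h and 28.3% and 26.0% at 20 h. The median log2 fold change of the 36 genes was 0.47 at 3 h and 0.81 at 20 h in Ahr+/+ BMMs, and 0.52 and 0.89 in Ahr-/- BMMs. The medians over all genes in the same order were -0.10, 0.00, -0.08 and 0.02.

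The 4 activated libraries lay above all 4 unactivated libraries for 30 and 33 of the 36 genes at 3 h and 20 h in Ahr+/+ BMMs and for 29 and 33 in Ahr-/- BMMs. Among all genes that share was 27.6%, 33.2%, 24.6% and 26.9%. A fold above 2 was reached by 7 and 10 genes in Ahr+/+ BMMs and by 6 and 12 genes in Ahr-/- BMMs. The shares of all genes above that fold were 14% and 14.3% in Ahr+/+ and 14.4% and 12.2% in Ahr-/- BMMs. Of the members that rose, 26 did so in both genotypes at 3 h and 31 at 20 h. The share of all genes that rose in both genotypes was not determined, so these overlaps are descriptions only. Under upper quartile scaling, which shifted the median of all genes by -0.16 in both Ahr+/+ comparisons and by -0.18 and -0.16 in Ahr-/- BMMs, Psmd5 (-0.31) and Psmd9 (-0.42) were called lower at 3 h and Psmd1 (-0.36) at 20 h in Ahr+/+ BMMs, as was Psmd5 (-0.28) at 3 h in Ahr-/- BMMs. Relative to the median of all genes, the median of the 36 stood at 0.57, 0.81, 0.59 and 0.87 in the 4 comparisons, a distance that a change of scaling leaves as it is.

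**Figure D2:**
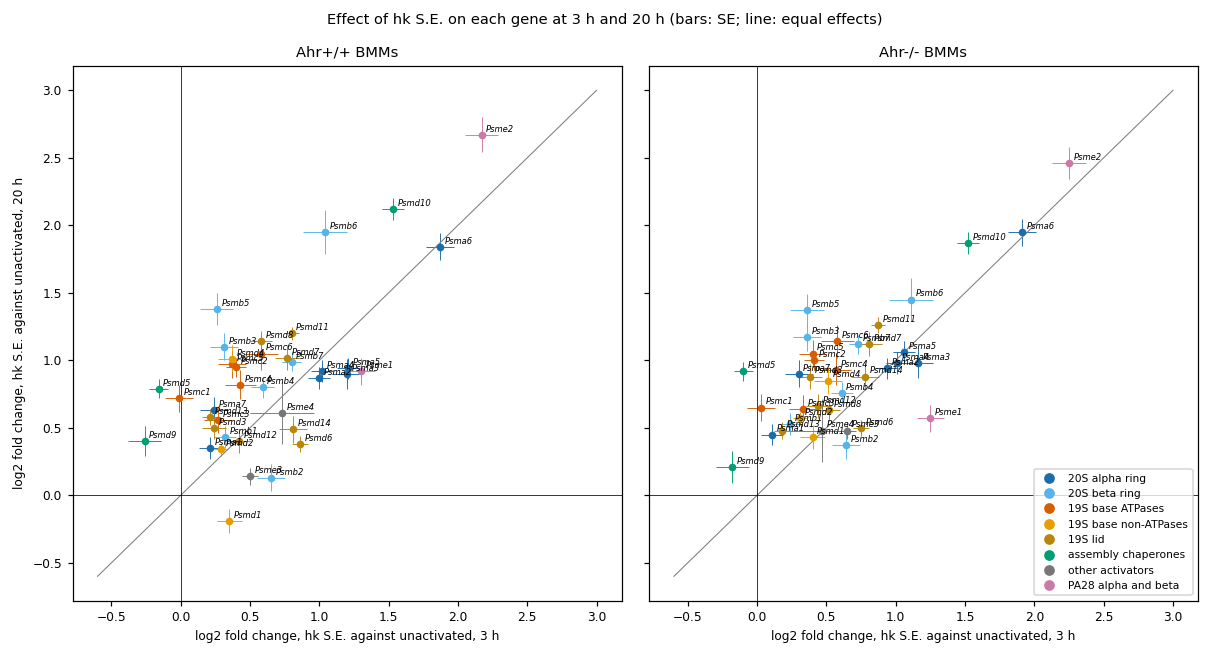
Log2 fold change of each of the 38 genes with hk S.E. at 3 h (x axis) and at 20 h (y axis), in Ahr+/+ (left) and Ahr-/- BMMs (right), with bars of 1 SE and the line of equal effects, coloured by sub-complex. Most points lie right of and above 0, Psme2 is farthest out, and Psmb5, Psmd5 and Psmd10 lie above the line.

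The alpha ring, which forms the gated entry of the barrel, rose at both times. Of its 7 genes, 5 were called in Ahr+/+ BMMs at 3 h and 7 at 20 h, with median log2 fold changes of 1.02 and 0.90. The Ahr-/- BMMs had 6 and 7 called genes, with medians of 1.01 and 0.98. Psma6 was at 126, 121, 113 and 127 CPM in the unactivated and at 435, 445, 461 and 439 CPM in the activated Ahr+/+ libraries at 3 h, and at 103, 96.5, 117 and 113 against 367, 391, 351 and 432 CPM at 20 h. No activated library overlapped an unactivated one. The log2 fold change of Psma6 was 1.87 ± 0.10 (SE) at 3 h and 1.84 ± 0.10 at 20 h (adjusted p = 1.59e-24 and 2.80e-24), and 1.91 and 1.95 in Ahr-/- BMMs. Psma1 was the member of the ring with the smallest response at 3 h, at 136, 139, 110 and 139 CPM unactivated and 151, 149, 151 and 155 CPM activated in Ahr+/+ BMMs (log2 fold change 0.21, adjusted p = 0.0193). At 20 h it rose by 0.35 on the log2 scale.

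The beta ring holds the catalytic sites. Of its 7 genes, 6 rose in Ahr+/+ BMMs at 3 h and 6 at 20 h, with median log2 fold changes of 0.59 and 0.99, and all 7 rose at both times in Ahr-/- BMMs, with medians of 0.61 and 1.12. Psmb6, whose product has the caspase-like activity, was at 174, 158, 186 and 186 CPM unactivated and 382, 343, 340 and 384 CPM activated at 3 h in Ahr+/+ BMMs. At 20 h it was at 138, 139, 140 and 171 CPM unactivated and 594, 484, 501 and 690 CPM activated. Groups did not overlap at either time, and the log2 fold change was 1.04 ± 0.16 at 3 h and 1.95 ± 0.16 at 20 h (adjusted p = 6.74e-08 and 6.34e-16). The Ahr-/- BMMs gave 1.11 and 1.45.

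Psmb5, whose product has the chymotrypsin-like activity, was called at 3 h in Ahr-/- but not in Ahr+/+ BMMs. Its early values in Ahr+/+ BMMs were 85.5, 80.1, 108 and 101 CPM unactivated and 113, 105, 124 and 106 CPM activated, so that the groups overlapped and the log2 fold change of 0.26 ± 0.12 was not called (adjusted p = 0.0544), whereas edgeR with the replicate number as a term called it (adjusted p = 0.00876). At the same time in Ahr-/- BMMs it was at 66.8, 96.1, 79.6 and 91.6 against 115, 117, 103 and 91.9 CPM, and the log2 fold change of 0.36 was called (adjusted p = 0.00748). That call was lost without the unactivated Ahr-/- library of replicate 1 (0.26, adjusted p = 0.062) or of replicate 3 (0.33, adjusted p = 0.0228). By edgeR it was also lost with upper quartile scaling (0.18, adjusted p = 0.237), with no filter on low counts and with libraries of 1 identifier series. The compared groups alone lost it too (0.42, adjusted p = 0.0127) and called Psmb5 in Ahr+/+ BMMs (0.34, adjusted p = 0.00589). At 3 h the response was not called different between the genotypes for any beta ring gene (-0.09 to 0.10). At 20 h Psmb5 was at 70.2, 77.9, 73.3 and 84.3 CPM unactivated and 199, 173, 210 and 212 CPM activated in Ahr+/+ BMMs, with a log2 fold change of 1.38 ± 0.12 (adjusted p = 4.28e-15), and in Ahr-/- BMMs the log2 fold change was 1.37. Of the windows of about read length in its transcript, 14.7% occur in another gene, so part of its reads may have been left uncounted.

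Psmb7, whose product has the trypsin-like activity, was at 84.6, 76.7, 85.9 and 86.3 CPM unactivated and 147, 146, 135 and 151 CPM activated at 3 h in Ahr+/+ BMMs. At 20 h it was at 76.1, 75.7, 81 and 86.9 against 150, 154, 150 and 182 CPM. The groups were apart at both times, with log2 fold changes of 0.80 ± 0.07 and 0.99 ± 0.07 (adjusted p = 3.86e-15 and 7.42e-19), and of 0.73 and 1.12 in Ahr-/- BMMs. Psmb2, a beta subunit without catalytic activity, rose at 3 h by 0.65 in Ahr+/+ BMMs and was not called at 20 h (0.13, adjusted p = 0.284).

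The inducible counterparts of the catalytic genes rose in all 4 comparisons. Log2 fold changes at 3 h in Ahr+/+ BMMs were 1.67 for Psmb8, 1.95 for Psmb9 and 1.98 for Psmb10, and at 20 h 1.86, 1.91 and 1.76. The Ahr-/- BMMs gave 1.62, 1.85 and 1.94 for the early and 1.78, 1.28 and 1.21 for the late time. Per kilobase of exon, the mean log2 ratio of Psmb8 to Psmb5 in Ahr+/+ BMMs was -1.73 ± 0.03 (SD, n = 4) unactivated and -0.32 ± 0.14 activated at 3 h, and at 20 h it lay between -1.53 and -1.44 unactivated and between -1.08 and -0.90 activated. The highest of the 4 unactivated libraries lay under the lowest activated one at each time. The ratio of Psmb9 to Psmb6 was -3.41 and -2.50 at 3 h and -3.05 and -3.06 at 20 h, where the ranges of the groups overlapped (-3.26 to -2.84 and -3.28 to -2.88). The ratio of Psmb10 to Psmb7 was 0.37 and 1.57 at 3 h and 0.38 and 1.15 at 20 h. In Ahr-/- BMMs the ratio of Psmb8 to Psmb5 was -1.54 and -0.27 at 3 h and -1.34 and -0.92 at 20 h, and that of Psmb9 to Psmb6 was -3.15 and -2.40 at 3 h and -2.94 and -3.12 at 20 h. The ratio of Psmb10 to Psmb7 there was 0.54 and 1.77 at 3 h and 0.49 and 0.58 at 20 h, where the ranges of the groups overlapped (0.28 to 0.90 and 0.29 to 0.93). These ratios depend on the annotated exon lengths and are given as levels of mRNA.

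**Figure D3:**
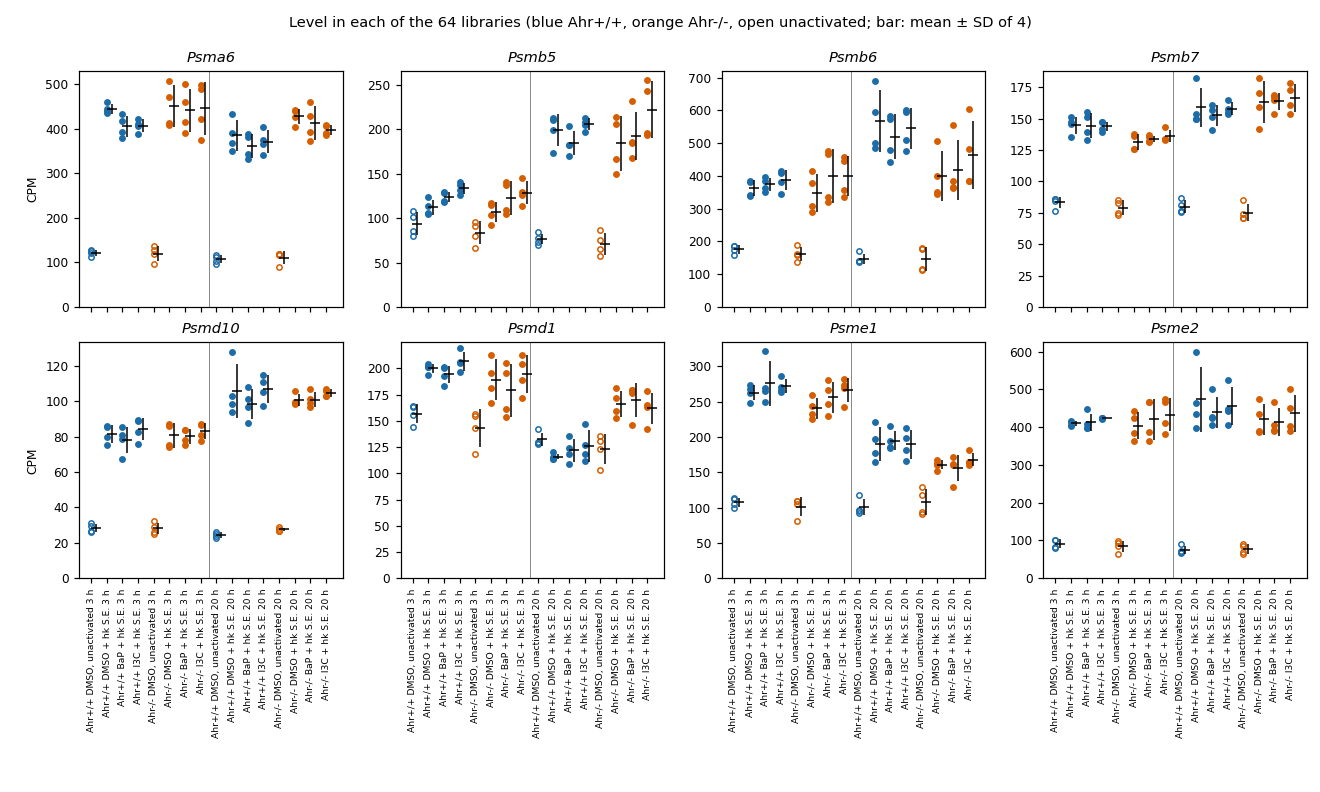
Level in CPM (y axis, from 0) of Psma6, Psmb5, Psmb6, Psmb7, Psmd10, Psmd1, Psme1 and Psme2 in each of the 64 libraries by group (x axis), blue for Ahr+/+, orange for Ahr-/-, open circles for unactivated, with the mean ± SD of 4. Psmb5 overlaps between unactivated and activated Ahr+/+ libraries at 3 h and not at 20 h, and Psmd1 at 20 h is at 114 to 120 CPM in Ahr+/+ and 153 to 181 CPM in Ahr-/- BMMs with hk S.E. after DMSO.

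Of the 6 ATPases of the base, 4 were called at 3 h and all 6 at 20 h in Ahr+/+ BMMs, with medians of 0.39 and 0.89, and 5 and 6 were called in Ahr-/- BMMs, with medians of 0.40 and 0.96. Psmc1 was at 126, 114, 144 and 139 CPM unactivated and 128, 127, 132 and 134 CPM activated in Ahr+/+ BMMs at 3 h (log2 fold change -0.01), and at 106, 102, 120 and 123 against 167, 171, 192 and 211 CPM at 20 h (0.72, adjusted p = 1.24e-08). Its groups overlapped at 3 h and were apart at 20 h. Psmc6 had the largest response of the ATPases, with log2 fold changes of 0.58 and 1.05 in Ahr+/+ and 0.58 and 1.14 in Ahr-/- BMMs.

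The other base subunits are the scaffolds Psmd1 and Psmd2 and the ubiquitin receptor Psmd4. All 3 rose at 3 h in both genotypes, with medians of 0.35 and 0.40. At 20 h Psmd4 (1.01) and Psmd2 (0.34) were called in Ahr+/+ BMMs, and Psmd1 was at 129, 128, 142 and 130 CPM unactivated and 120, 116, 114 and 114 CPM activated. The activated libraries of Psmd1 thus lay under the unactivated ones, and the log2 fold change of -0.19 was not called (adjusted p = 0.0627), whereas a fit of the compared groups alone gave -0.22 and called it (adjusted p = 0.00666). In Ahr-/- BMMs at 20 h Psmd1 rose by 0.43. Psmd1 overlaps the annotated gene Gm21972 on the same strand, which had a mean of 0.00815 CPM.

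All 8 lid genes rose at 20 h in both genotypes, with medians of 0.54 and 0.77, and 7 of 8 at 3 h, with medians of 0.67 and 0.63. Psmd14, the deubiquitinase of the lid, was at 79.5, 81.7, 66.6 and 84.8 CPM unactivated and 133, 141, 134 and 139 CPM activated in Ahr+/+ BMMs at 3 h (log2 fold change 0.81), and at 62.2, 64.3, 69.3 and 71.7 against 89.5, 93.5, 84.1 and 108 CPM at 20 h (0.49). Psmd11, a scaffold of the lid that contacts the core, was at 67.4, 63.1, 64.9 and 68.9 against 112, 118, 115 and 115 CPM at 3 h (0.80 ± 0.05) and at 54.1, 52.1, 56.7 and 55.6 against 123, 121, 124 and 133 CPM at 20 h (1.20 ± 0.05). Both genes were apart between the groups at each time.

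A group of 3 members are chaperones that assemble the base and leave the finished particle. Psmd10, known as gankyrin, was at 26.3, 26.4, 31 and 29.5 CPM unactivated and 75, 85.3, 79.9 and 85.8 CPM activated in Ahr+/+ BMMs at 3 h. At 20 h it was at 22.5, 25.2, 23.6 and 26 against 103, 98.7, 93.9 and 128 CPM. No libraries overlapped, and the log2 fold change was 1.53 ± 0.08 at 3 h and 2.12 ± 0.08 at 20 h (adjusted p = 2.88e-23 and 2.34e-29), the highest of the 36 genes at 20 h in Ahr+/+ BMMs, and 1.52 and 1.87 in Ahr-/- BMMs. Psmd5 was at 38.6, 37.8, 35.6 and 38.2 CPM unactivated and 33.2, 31.1, 37.6 and 32.7 CPM activated at 3 h (-0.16, adjusted p = 0.0504), and at 29.4, 31.9, 31.7 and 32.8 against 55.4, 55.4, 50.5 and 56.1 CPM at 20 h (0.79, adjusted p = 1.67e-14). Psmd9 had the lowest log2 fold change of the 36 genes at 3 h (-0.26, adjusted p = 0.0472) and rose by 0.40 at 20 h.

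The other activators are encoded by Psme3 and Psme4. Psme3 encodes PA28 gamma, which acts in the nucleus, and rose in Ahr+/+ BMMs at 3 h (0.50, adjusted p = 4.59e-11), was not called at 20 h (0.14, adjusted p = 0.0284), and rose at both times in Ahr-/- BMMs (0.65 and 0.48). Psme4, which encodes PA200, was called in Ahr+/+ BMMs at 3 h (0.73 ± 0.23, adjusted p = 0.005), and gave 0.61 ± 0.23 at 20 h (adjusted p = 0.0174) and 0.47 ± 0.23 and 0.48 ± 0.23 in Ahr-/- BMMs (adjusted p = 0.0706 and 0.0643). Its Ahr-/- libraries fell into a lower and a higher pair, at 53, 48.7, 94.2 and 93.5 CPM unactivated and 68.6, 75.7, 133 and 128 CPM activated at 20 h, so that each replicate number had the higher value with hk S.E. With the replicate number as a term, edgeR called Psme4 in all 4 comparisons, at 0.73 and 0.61 in Ahr+/+ and 0.44 and 0.49 in Ahr-/- BMMs (adjusted p = 2.16e-07, 6.21e-06, 6.76e-04 and 2.26e-04).

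PA28 binds the core in place of a 19S cap and is known to be induced by interferons. Psme2, its beta subunit, had the largest log2 fold change of all 38 genes in each of the 4 comparisons. It was at 79.4, 83.1, 102 and 100 CPM in unactivated and 406, 417, 404 and 415 CPM in activated Ahr+/+ BMMs at 3 h. At 20 h it was at 70.8, 66.1, 70.6 and 89.7 against 434, 398, 464 and 598 CPM. The log2 fold change of Psme2 was 2.17 ± 0.12 at 3 h and 2.67 ± 0.13 at 20 h (adjusted p = 1.88e-22 and 4.70e-26), and 2.25 and 2.46 in Ahr-/- BMMs. Its values are uncertain, since 37.5% of the windows of about read length in its transcript also occur in Psme2b, a near-identical gene with log2 fold changes of 2.17 at 3 h and 2.56 at 20 h in Ahr+/+ BMMs.

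Psme1, the alpha subunit of PA28, was at 99.1, 105, 113 and 112 CPM unactivated and 262, 274, 248 and 268 CPM activated in Ahr+/+ BMMs at 3 h. At 20 h it was at 92.6, 97.1, 94.9 and 118 against 177, 165, 197 and 221 CPM, and no activated library of Psme1 reached down to an unactivated one. The log2 fold change was 1.30 ± 0.10 at 3 h and 0.92 ± 0.10 at 20 h (adjusted p = 5.46e-17 and 6.47e-12), and 1.25 and 0.57 in Ahr-/- BMMs.

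The response to hk S.E. differed between the times for a part of the members, about as often as among all genes. In Ahr+/+ BMMs the log2 fold change was larger at 20 h for 13 of the 36 genes and smaller for 4, by the interaction of hk S.E. and time in edgeR, against 26.5% and 21.3% of all genes. The largest differences were those of Psmb5 (1.12), Psmd5 (0.95) and Psmb6 (0.91). In Ahr-/- BMMs it was larger for 15 and smaller for 0, against 25.2% and 19.4% of all genes, led by Psmd5 (1.02), Psmb5 (1.02) and Psmb3 (0.81). Of these genes 9 were larger in both genotypes, namely Psmb3, Psmb5, Psmc1, Psmc2, Psmc5, Psmd10, Psmd11, Psmd13 and Psmd5. The share of all genes with a larger response in both genotypes was not determined. The count in Ahr-/- BMMs depended on the fit, with 10 larger and 2 smaller by DESeq2, 7 and 0 with the compared groups alone, and 22 and 1 with the replicate number as a term. For Psme2 the difference in Ahr+/+ BMMs was 0.50 (adjusted p = 0.00904). That call was lost without any 1 of the activated 3 h libraries (0.41 to 0.44), without unactivated replicate 3 or 4 of 3 h (0.44 and 0.45), without unactivated replicate 1, 2 or 3 of 20 h (0.48, 0.45 and 0.48) and without activated replicate 3 or 4 of 20 h (0.51 and 0.37). For Psme1 the difference was -0.38 (adjusted p = 0.0182) in Ahr+/+ and -0.67 (adjusted p = 4.84e-05) in Ahr-/- BMMs.

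Among activated cells, 12 of the 36 genes were higher and 10 lower at 20 h than at 3 h in Ahr+/+ BMMs. This is close to the shares of all genes (33.0% and 26.4%). The 3 largest changes were Psmb5 (0.83), Psmd1 (-0.79) and Psmd5 (0.69). In Ahr-/- BMMs 17 were higher and 5 lower, against 31.7% and 24.3% of all genes, with Psmb5 (0.78), Psmd5 (0.77) and Psmc5 (0.61) in the lead. These splits depended on the scaling, since edgeR with RLE size factors gave 10 higher and 12 lower in Ahr+/+ and 9 and 6 in Ahr-/- BMMs. With the compared groups alone, 6 were higher and 4 lower in Ahr-/- BMMs. The members higher in both genotypes were Psmb3, Psmb5, Psmc1, Psmc2, Psmc4, Psmc5, Psmd10, Psmd13, Psmd4, Psmd5 and Psmd9, and those lower in both were Psma3, Psmb2, Psmd6 and Psme3. No gene of the alpha ring was higher at 20 h in Ahr+/+ BMMs and 4 of its 7 were lower, whereas 4 of 6 ATPases and all 3 chaperones were higher. Of the alpha ring, 2 genes were higher and 1 lower in Ahr-/- BMMs, with a median of 0.00, and all 6 ATPases and all 3 chaperones were higher. Psme1 fell between the times by 0.47 on the log2 scale in Ahr+/+ and by 0.58 in Ahr-/- BMMs, and Psme2 was not called (0.21 and 0.06). In Ahr-/- BMMs the activated libraries of 3 h and 20 h carry identifiers of different series in the labels, so that time and series cannot be told apart there.

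Without activation few members were called between the times. In each genotype 3 of 36 were lower at 20 h and 0 higher, and these were the lid genes Psmd8 and Psmd11 and the scaffold Psmd2, with log2 fold changes of -0.48, -0.27 and -0.27 in Ahr+/+ and of -0.54, -0.24 and -0.25 in Ahr-/- BMMs. Of all genes, 3.31% were higher and 2.77% lower in Ahr+/+ BMMs, and 3.52% and 3.46% in Ahr-/- BMMs. Psmd8 was at 261, 217, 269 and 272 CPM at 3 h and at 188, 164, 186 and 190 CPM at 20 h in Ahr+/+ BMMs, with no overlap. The call of Psmd11 in Ahr-/- BMMs was lost without the 20 h library of replicate 2 (-0.19, adjusted p = 0.0215). The 3 calls became 1 in each genotype with no filter on low counts, 1 in Ahr+/+ BMMs with libraries of 1 identifier series, and 7 and 6 with the replicate number as a term. With the compared groups alone, edgeR called 0 in Ahr-/- BMMs, where 5 members had an unadjusted p under 0.05. In unactivated Ahr-/- BMMs all 4 libraries of 20 h carry identifiers of 1 series, and 3 of the 3 h libraries those of another. Time and series can therefore hardly be told apart there.

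The comparison of Ahr-/- with Ahr+/+ BMMs asked whether AhR, with no ligand added, bears on these genes. None of the 36 was called in unactivated cells at 3 h or 20 h or in activated cells at 3 h, by edgeR, DESeq2 or limma, and 4, 3 and 7 of them had an unadjusted p under 0.05. Among all genes 1.21%, 0.702% and 2.83% were called in these comparisons. For a difference between the genotypes in the response to hk S.E. at 3 h, 0 members were called by the 3 tools and 0 lay under an unadjusted p of 0.05, against 0.0138% of all genes.

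With hk S.E. at 20 h, Psmd1 and Psme3 were higher and Psmd8 lower in Ahr-/- BMMs, which makes 2 members higher and 1 lower where 5.06% and 7.39% of all genes were. Psmd8, a lid subunit, was at 415, 353, 367 and 473 CPM in Ahr+/+ and 278, 248, 248 and 259 CPM in Ahr-/- BMMs (log2 fold change -0.64 ± 0.08, adjusted p = 4.71e-08). Psmd1 was at 120, 116, 114 and 114 CPM in Ahr+/+ and 153, 172, 159 and 181 CPM in Ahr-/- BMMs (0.52 ± 0.09, adjusted p = 2.75e-05). Psme3 was at 89.1, 95.7, 85.3 and 86.9 against 106, 114, 103 and 111 CPM (0.28 ± 0.06, adjusted p = 2.06e-04). None of the 3 genes overlapped between the genotypes. Psmb6 had a log2 fold change of -0.51 and was not called (adjusted p = 0.0146), and neither Psme1 nor Psme2 was called (-0.24 and -0.17).

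**Figure D4:**
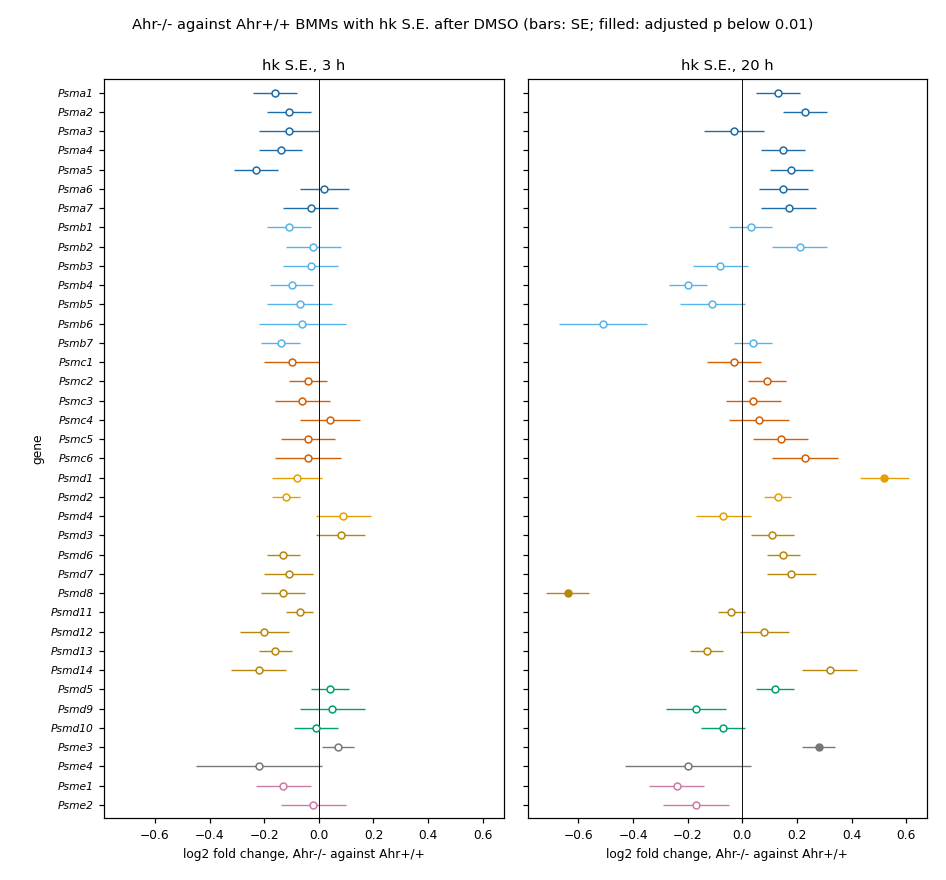
Log2 fold change of Ahr-/- against Ahr+/+ BMMs (x axis) for each of the 38 genes (y axis) with hk S.E. after DMSO at 3 h (left) and 20 h (right), with bars of 1 SE and filled points at an adjusted p below 0.01. No point is filled at 3 h, and Psmd1, Psmd8 and Psme3 are at 20 h.

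The response to hk S.E. itself differed between the genotypes at 20 h for the same 3 members, by 0.62 for Psmd1 (adjusted p = 8.74e-04), -0.51 for Psmd8 (adjusted p = 0.00207) and 0.34 for Psme3 (adjusted p = 0.00349), against 2.08% of all genes with a larger and 2.33% with a smaller response in Ahr-/- BMMs. Without the activated Ahr+/+ library of replicate 4 the difference of Psmd8 was -0.43 (adjusted p = 0.0117). That of Psme3 was 0.31 (adjusted p = 0.0148) without the unactivated Ahr+/+ library of replicate 3, and 0.30 (adjusted p = 0.0161) and 0.32 (adjusted p = 0.0141) without the unactivated or activated Ahr-/- library of replicate 2. The same 3 genes were called in the libraries with a ligand, which are other libraries of the same genotypes. With 4 mice per genotype these libraries may come from the same animals, so they cannot be taken as an independent repeat. With BaP and hk S.E. at 20 h, Psmd1 differed by 0.48, Psmd8 by -0.58 and Psme3 by 0.38, and with I3C and hk S.E. by 0.36, -0.49 and 0.31.

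In all, 7 of the 36 genes were higher and 1 lower in Ahr-/- BMMs with BaP and hk S.E. at 20 h, against 11.5% and 11.8% of all genes, and 3 and 1 with I3C, against 7.47% and 8.17%. The further genes called with BaP were Psma2, Psma7, Psmd2, Psmd3 and Psmd7, at 0.20 to 0.39, and the third gene called with I3C beside Psmd1 and Psme3 was Psmd3 (0.30), the only lower one being Psmd8 both times. Psme1 was lower with BaP (-0.32, adjusted p = 0.00805). All activated Ahr+/+ libraries of 20 h carry identifiers of 1 series and all activated Ahr-/- libraries of 20 h those of others, so that genotype and series cannot be told apart in these comparisons. With unactivated libraries of the same series only, the response of Psmd8 to hk S.E. differed by -0.47 (adjusted p = 0.0191).

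None of the 36 genes was called with an AhR ligand. In the 8 comparisons of BaP or I3C with DMSO, all with hk S.E., 0 members were called by edgeR, DESeq2 or limma, and neither Psme1 nor Psme2 was. For BaP, 0.0482% of all genes were called in Ahr+/+ BMMs at 3 h and 0.234% at 20 h, and 0.0275% and 0.0138% in Ahr-/- BMMs. For I3C these shares were 0.131%, 0.509%, 0.0206% and 0.206%. The number of members with an unadjusted p under 0.05 was 0 and 1 with BaP and 1 and 0 with I3C in Ahr+/+ BMMs at 3 h and 20 h, and 2 and 0 with BaP and 5 and 2 with I3C in Ahr-/- BMMs. Median log2 fold changes lay between -0.06 and 0.09. The effect of a ligand differed between the genotypes for 0 members in each of the 4 interactions, by all 3 tools, with 0, 1, 0 and 0 members under an unadjusted p of 0.05 and with 0.0138%, 0%, 0% and 0% of all genes called.

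The libraries limit how small an effect of a ligand would have been seen. The 95% interval of the log2 fold change lay within ±0.5 for 32 to 36 of the 36 genes, depending on the comparison. The widest was that of Psme4, which reached 0.83 with BaP in Ahr+/+ BMMs at 20 h and -0.67 with BaP in Ahr-/- BMMs at 3 h. With BaP in Ahr+/+ BMMs at 20 h, longer genes tended to higher fold changes, with a Spearman correlation with exon length of 0.26 across 14418 genes and of 0.48 across the 36 members, which share the same 8 libraries.

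**Figure D5:**
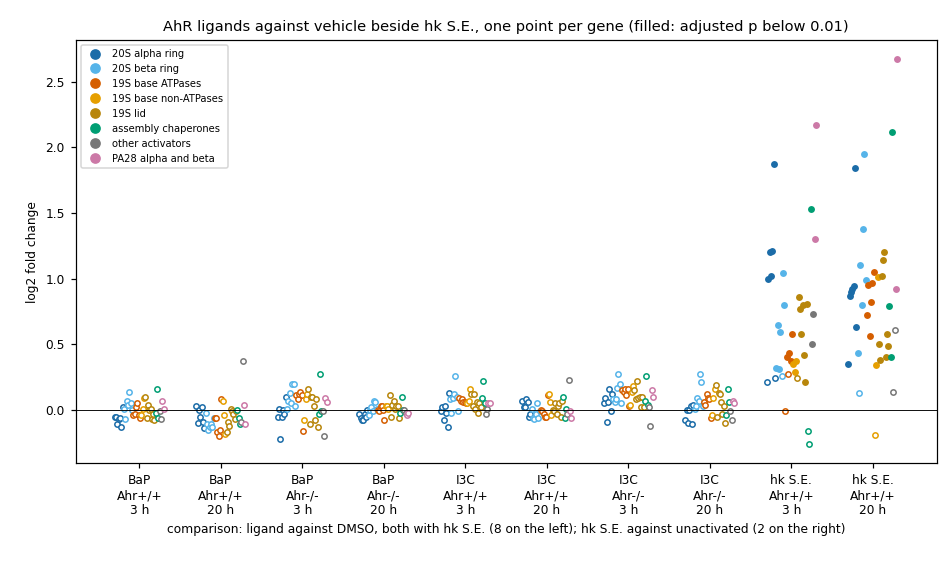
Log2 fold change of each gene (points, coloured by sub-complex) with BaP or I3C against DMSO in activated BMMs of each genotype and time, beside that with hk S.E. against unactivated cells, filled where the adjusted p was below 0.01. No point of a ligand comparison is filled, and the medians of the 36 genes there lie between -0.06 and 0.09 against 0.47 to 0.89 with hk S.E.

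A list of 33 symbols gave 31 further genes of the ubiquitin-proteasome pathway. In Ahr+/+ BMMs 13 of them rose and 3 fell with hk S.E. at 3 h, and 19 rose and 2 fell at 20 h. The Ahr-/- BMMs had 12 rising and 4 falling genes at 3 h, and 19 rising and 3 falling ones at 20 h. Median log2 fold changes in the same order were 0.22, 0.49, 0.20 and 0.52. The share of all tested genes that rose in these 4 comparisons was 24.2%, 29.9%, 25.5% and 28.3%. The share that fell was 32.3%, 28.7%, 31.8% and 26.0%. Nfe2l1 was at 167 ± 19.1 CPM unactivated and 234 ± 20.1 CPM activated at 3 h (log2 fold change 0.49), and at 141 ± 7.68 against 846 ± 29.2 CPM at 20 h (2.59 ± 0.08, adjusted p = 1.52e-33) in Ahr+/+ BMMs, and rose by 0.60 and 2.39 in Ahr-/- BMMs. Ddi2, the protease that activates the NRF1 protein, fell from 103 ± 8.48 to 15 ± 1.57 CPM at 3 h (-2.78) and from 104 ± 4.31 to 71.3 ± 5.12 CPM at 20 h (-0.54). Adrm1, a ubiquitin receptor of the base outside the symbols used here, was not called at 3 h (0.22, adjusted p = 0.119) and rose by 1.14 at 20 h.

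Pomp, the maturation factor of the core, rose by 0.61 at 3 h and was not called at 20 h in Ahr+/+ BMMs (0.20, adjusted p = 0.0381). The core chaperones Psmg1, Psmg2 and Psmg3 were not called at 3 h (-0.17, -0.36 and -0.32) and rose at 20 h by 0.49, 0.97 and 0.58, whereas Psmg4, the fourth of them, was called at neither time (-0.08 and -0.17). The ubiquitin gene Ubb rose at 20 h by 1.19. Of 5 shuttle factors, which carry ubiquitinated proteins to the proteasome, 2 rose and 1 fell at 3 h and 3 rose and 1 fell at 20 h. Rad23b (0.47 and 0.73) and Ubqln1 (0.39 and 0.44) rose at both times, while Ubqln2 fell at both (-1.23 and -1.10). Zfand2a, an arsenite-inducible protein that binds the 19S cap, fell at 3 h (-2.35) and was not called at 20 h (-0.21, adjusted p = 0.0255).

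Across the 16 groups most members followed the rest of the set. The correlation of a gene's group means of log2 CPM with the mean of the other members had a median of 0.91 and exceeded 0.9 for 19 of 36 genes, and over all genes tested the median was -0.09 and 5.45% exceeded 0.9. Psmd11 (1.00) and Psmb7 (0.99) were most like the set, as was Psme2 (0.99), while Psme1 reached 0.79. Psmd1 (0.37), Psmd9 (0.41), Psmd5 (0.55), Psmb2 (0.57) and Psme3 (0.57) were least like it. These values are descriptions over 16 points that share the contrast of activated with unactivated libraries.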

How the data were processed

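RNA of 64 BMM cultures, 4 in each of 16 groups, was sequenced with a stranded mRNA kit. The authors made the deposited counts per gene from trimmed read pairs, aligned with HISAT2 2.1.0 to mm10 and counted on GENCODE genes with HTSeq 0.9.1 on the reverse strand, with no normalization, and read pairs matching several places were not counted. The log2 values were made by the authors from these counts with the variance-stabilizing transformation of DESeq2, and were used only for the limma alternative. Entries that name no gene were left out of library sizes; they held 3.41% to 5.92% (no gene), 12.4% to 15.8% (several places), 1.06% to 1.61% (ambiguous), 0.831% to 5.63% (low quality) and 0.350% to 0.852% (not aligned) of read pairs.

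Counts were fitted in R 4.3.3 with edgeR 4.0.16 (quasi-likelihood, TMM, 16 group means over all libraries, filterByExpr with min.count 10), which left 48 residual and 5.06 prior degrees of freedom, with Benjamini-Hochberg adjustment over 14537 genes and a threshold of 0.01. Fold changes are on a log2 scale with their SE, and CPM in the text are per library after TMM, except those of markers and of the minimum level, which are scaled by total counts. Promoters are from RefSeq (GRCm38.p6), and symbols were matched for 55094 of the gene identifiers. Per-library values are given for Psme1, Psme2, the catalytic genes, the 2 members with the largest rise in each hk S.E. comparison and further members chosen as examples after their values were seen; in the other comparisons every called member is named if there are at most 6, and otherwise the 3 with the largest change. The members, the pathway list and the markers were chosen with earlier results of these data known. Whether replicates are separate mice in every group is not stated in the labels, so p-values measure the spread between these libraries. No group held a library deposited more than once, since any 2 libraries of a group differed by more than sampling noise (chi-square per degree of freedom of at least 3.67). The intervals cover the spread between libraries. Scripts were tested on simulated data. Alternatives were other scalings, no filter, another threshold, DESeq2 1.42.0, limma 3.58.1, the compared groups alone, a replicate term, each library left out, other limits on the mean level, and, chosen after seeing the data, libraries of 1 identifier series and the genotypes compared within BaP and I3C. Some genes of the pathway list are counted with the others, and their own values are not reported here.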

Additional observations from a re-analysis of the deposited data

Results flagged for a closer look

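In 176 groups of 4 libraries, 13 libraries lay apart from the other 3 by Dixon's criterion for a single outlying value, which chance alone gives in about 1 of 20 groups. In log2 CPM these were Psma6 in Ahr-/- unactivated 20 h replicate 2 (6.48, others 6.86 to 6.90), Psmb6 in Ahr-/- BaP with hk S.E. 20 h replicate 1 (9.11, others 8.50 to 8.59) and in Ahr+/+ unactivated 20 h replicate 4 (7.42, others 7.11 to 7.13), and Psmb7 in Ahr-/- I3C with hk S.E. 3 h replicate 3 (7.17, others 7.06 to 7.07), in Ahr+/+ hk S.E. 20 h replicate 4 (7.51, others 7.23 to 7.27) and in Ahr+/+ unactivated 3 h replicate 2 (6.26, others 6.40 to 6.43). Psmd1 stood apart in Ahr-/- BaP with hk S.E. 20 h replicate 1 (7.19, others 7.46 to 7.49) and in Ahr+/+ unactivated 20 h replicate 3 (7.15, others 7.01 to 7.03), and Psmd8 in Ahr-/- unactivated 3 h replicate 1 (7.60, others 7.99 to 8.04) and in Ahr+/+ unactivated 20 h replicate 2 (7.36, others 7.54 to 7.57). The others were Psme1 in Ahr-/- unactivated 3 h replicate 1 (6.35, others 6.71 to 6.79), Psme2 in Ahr+/+ I3C with hk S.E. 3 h replicate 3 (8.73, with the others at the same value after rounding) and Psme3 in Ahr+/+ hk S.E. 3 h replicate 3 (7.18, others 6.94 to 6.98).

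The response to hk S.E. at 20 h differed between the genotypes for Psmd1 (0.62, Ahr-/- minus Ahr+/+), Psmd8 (-0.51) and Psme3 (0.34) by the interaction test of edgeR. The response differed between 3 h and 20 h for 17 of the 36 genes in Ahr+/+ and 15 in Ahr-/- BMMs by the same kind of test. Such differences were about as common among all genes, at 6950 and 6491 of 14537. Among all genes, 26.5% had a larger and 21.3% a smaller response at 20 h in Ahr+/+ BMMs. These shares were 25.2% and 19.4% in Ahr-/- BMMs.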

How the results depend on the processing

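No call of a named gene turned its direction under any alternative; of the values of named genes under an alternative, 1054 kept their side of the threshold, 45 lost and 11 gained it. The count of members called with hk S.E., in either direction, stayed within 1.5 times under every alternative. It includes the few genes called lower under upper quartile scaling, at a threshold of 0.05 or with the compared groups alone. With 1 library left out it ranged from 25 to 32 (Ahr+/+, 3 h), 31 to 32 (Ahr+/+, 20 h), 25 to 31 (Ahr-/-, 3 h) and 33 to 34 (Ahr-/-, 20 h). For the other comparisons with calls, leaving out 1 library gave 2 to 3 members (hk S.E. by genotype, 20 h), 3 to 4 and 2 to 4 (time, unactivated Ahr+/+ and Ahr-/-), 20 to 24 and 16 to 21 (time, activated), 17 to 19 and 11 to 16 (hk S.E. by time) and 3 to 4 (genotype, hk S.E. 20 h), and 0 where none was called. Counts that moved by more than 1.5 times were the following, and the cause was not tested. For time in unactivated cells, the 3 calls became 1 in each genotype with no filter, 6 in Ahr+/+ and 5 in Ahr-/- at a threshold of 0.05, 6 in Ahr+/+ with DESeq2, 1 in Ahr+/+ with libraries of 1 identifier series and 0 in Ahr-/- with the compared groups alone. For hk S.E. by genotype at 20 h, the 3 calls became 5 at a threshold of 0.05 and 1 with the compared groups alone, and for the genotypes with hk S.E. at 20 h they became 6 at 0.05. In Ahr-/- BMMs the compared groups alone gave 10 calls in place of 22 for time in activated cells and 7 in place of 15 for hk S.E. by time.

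Same-numbered libraries of different groups deviated together in 104 of 112 pairs in Ahr-/- and 54 of 112 in Ahr+/+ BMMs (correlation above 0.1), not in every pair of either genotype, and the labels tie no number to a mouse, so the numbers were not taken to pair the libraries. A fit with a replicate block gave 7 and 6 calls for time in unactivated Ahr+/+ and Ahr-/- BMMs, 5 for hk S.E. by genotype at 20 h and 23 for hk S.E. by time in Ahr-/- BMMs, and moved no other count by more than 1.5 times. With the block, Psma7, Psmb5, Psmc3 and Psmd3 (Ahr+/+, 3 h), Psmd13 (Ahr-/-, 3 h) and Psme4 (the other 3 comparisons) were also called with hk S.E., as were Psmb6 and Psmd3 for hk S.E. by genotype at 20 h. The comparison of the genotypes could not be paired, since the mice differ. Depth limits Psma8 and Psmb11, which lay under the minimum level, and the widest intervals were those of Psme4.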

Other observations

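Of the immunoproteasome genes, Psmb9 and Psmb10 differed between the genotypes with hk S.E. at 20 h. Psmb9 was at 138, 128, 122 and 139 CPM in Ahr+/+ and 86.8, 91.5, 90.7 and 86.2 CPM in Ahr-/- BMMs (log2 fold change -0.57, adjusted p = 1.07e-04 by edgeR), and Psmb10 at 160 to 195 against 104 to 135 CPM (-0.53, adjusted p = 0.00228). Neither gene overlapped between the genotypes, and Psmb8 was not called (-0.05, adjusted p = 0.825). The response to hk S.E. differed between the genotypes for Psmb9 (-0.64, adjusted p = 0.0048) and was not called different for Psmb10 (-0.55, adjusted p = 0.0504). Among the 31 pathway genes, 2 were called higher and 2 lower in Ahr-/- BMMs, which is close to the shares of all genes (5.06% and 7.39%). Those called included the ubiquitin gene Ubb (-0.36), which was lower. The ubiquitin-activating enzyme Uba1 (0.24) and the shuttle factor Ubqln2 (0.44) were higher. As for the constitutive genes, genotype and the series of library identifiers cannot be told apart here.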
